A study of Mus musculus with 9 samples.

Results

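Endothelial cells line every blood and lymph vessel of the lung, and 41 genes typical of them were followed here in lungs that received an adenovirus carrying IL-4, its splice variant IL-4d2 or no cytokine. The genes were chosen by name as endothelial markers, and a gene was measured by every probe set whose only gene symbol in the platform annotation was its own. All 41 had such a probe set, 72 in all among 45101 on the array. Only probe sets that exceeded the array median on 3 or more of the 9 arrays entered the test, which kept 40 of the 41 genes and 64 of the 72 probe sets, out of 11984 genes and 23824 probe sets tested in the series. The probe set with the highest mean log2 signal stood for a gene, and 16 of the 40 genes had more than 1 to choose from.

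Every group consisted of 3 female C57BL/6 mice, aged 14 weeks, whose whole lungs were taken 14 days after a replication-deficient adenovirus had been given into the trachea. The AdV-IL4 virus encoded mouse IL-4, the AdV-IL4d2 virus encoded mouse IL-4d2, and the AdV-NULL virus encoded no cytokine, so the AdV-NULL lungs had also been exposed to adenovirus. The labels do not say which cells of the lung took up the virus. The comparisons ask what either form of the cytokine changed in the lung, and where the forms differed. Il4 itself was 2.69 log2 units higher with AdV-IL4 than with AdV-NULL (limma adjusted p = 0.000836) and 3.93 higher with AdV-IL4d2 (limma adjusted p = 7.69e-05).

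The inner lining of a vessel is held together by adhesion and tight junction proteins, is kept alive and quiescent by receptors for VEGF, angiopoietins and BMP ligands, and takes its identity from ETS and SOX family transcription factors. In the lung most endothelium is capillary. One capillary type lies close to the gas exchange surface and carries Ednrb, Car4 and Apln, and the other, with Aplnr and Gpihbp1, acts as its progenitor. Veins carry more Vwf and P-selectin, and inflammation brings out adhesion molecules that catch leukocytes. IL-4 is known to raise VCAM1 on cultured endothelial cells, which makes the venous and activation genes of particular interest.

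Values are linear MAS5 signals, and the 9 arrays had medians of 156 to 171. Differences are on the log2(signal + 16) scale and come from 1 limma fit across all probe sets and arrays, with an adjusted p under 0.05 as the threshold. MAS5 scaling makes every difference one from the typical gene of the array. Scaling to hybridisation control spots instead placed the median of all genes at −0.45 log2 for AdV-IL4 against AdV-NULL, 0.09 for AdV-IL4d2 against AdV-NULL and −0.54 for AdV-IL4 against AdV-IL4d2. With poly-A control spots these medians were −0.79, 0.27 and −1.06. Nothing in the labels says whether these controls were added in equal amounts. Directions below hold relative to the typical gene. In whole lung RNA, fewer endothelial cells and less RNA of a gene per cell cannot be told apart.

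The promoters of 4 members whose signal differed with AdV-IL4 and that are held in the RefSeq promoter table of build GRCm38.p6 are shown first, since 3 of these genes fell and the other rose. Each runs from 250 bases before to 50 bases after the transcript start used in that table, 5′ to 3′ on the strand of the gene. For Clec14a and Cldn5 this start is the outer end of the RefSeq gene record. For Ednrb and Kdr it lies inside the record, which begins further upstream, at base 103844508 and base 75979072 of their chromosomes. Capitals mark GGAA, the core bound by ETS factors such as Erg, or TTCC, the same core on the other strand. Ednrb lies on the minus strand of chr14:103843652-103843951, Clec14a on the minus strand of chr12:58269209-58269508, Kdr on the minus strand of chr5:75978406-75978705 and Cldn5 on the plus strand of chr16:18776597-18776896.
Ednrb: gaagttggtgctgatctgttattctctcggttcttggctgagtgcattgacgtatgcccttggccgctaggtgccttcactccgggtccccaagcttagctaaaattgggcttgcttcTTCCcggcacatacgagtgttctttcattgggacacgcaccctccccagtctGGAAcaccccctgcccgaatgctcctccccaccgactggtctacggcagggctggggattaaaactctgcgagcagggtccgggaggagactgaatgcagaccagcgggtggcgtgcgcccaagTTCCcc
Clec14a: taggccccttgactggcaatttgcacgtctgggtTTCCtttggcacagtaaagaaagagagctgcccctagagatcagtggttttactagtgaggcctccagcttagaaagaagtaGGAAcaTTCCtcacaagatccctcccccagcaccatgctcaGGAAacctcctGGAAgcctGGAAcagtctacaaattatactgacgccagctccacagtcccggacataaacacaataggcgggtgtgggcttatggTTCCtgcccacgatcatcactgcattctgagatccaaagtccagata
Kdr: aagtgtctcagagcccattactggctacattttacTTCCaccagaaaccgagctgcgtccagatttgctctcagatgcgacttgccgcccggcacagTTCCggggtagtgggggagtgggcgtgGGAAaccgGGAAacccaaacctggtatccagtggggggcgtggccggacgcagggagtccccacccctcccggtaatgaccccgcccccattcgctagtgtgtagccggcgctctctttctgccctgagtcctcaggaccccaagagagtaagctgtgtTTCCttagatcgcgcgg
Cldn5: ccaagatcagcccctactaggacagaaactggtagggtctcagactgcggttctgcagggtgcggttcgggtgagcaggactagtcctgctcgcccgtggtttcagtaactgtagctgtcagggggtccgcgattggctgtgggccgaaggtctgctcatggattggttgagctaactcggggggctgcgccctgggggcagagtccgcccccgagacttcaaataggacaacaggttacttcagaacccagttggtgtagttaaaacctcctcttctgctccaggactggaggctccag
The Clec14a window held 7 such cores, the Kdr window 5, the Ednrb window 3 and the Cldn5 window 0. A match is common, as 95.98% of 32851 promoters in the table held at least 1 GGAA on either strand, and 25 of 26 promoters of 21 members did. The longer AGGAAG, which contains GGAA, was in 13 of the 26 member promoters and in 35.35% of all promoters. ACAAT, part of the SOX site, was in 8 of 26 against 31.02%, and TTCNNNNGAA, the STAT6 pattern, in 2 of 26 against 6.953%, both counted on either strand. Among the printed windows, Clec14a held 1 ACAAT, and none of the 4 held AGGAAG or the STAT6 pattern. Erg and Tek, also called with AdV-IL4, are in the table and are not printed here. Erg had AGGAAG, and both Erg and Tek had ACAAT, in 1 or more of their windows. These matches describe letters in a window and not bound sites.

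With AdV-IL4, 6 endothelial genes fell and 2 rose relative to AdV-NULL. Ednrb, Clec14a, Kdr, Tek, Erg and Sox17 fell by factors between 1.33 and 1.85, and Vwf and Cldn5 rose by factors of 1.42 and 1.37. That is 8 of 40 members called, or 20%, where 13% of all genes tested were called. By direction, 6.63% of all genes were called lower and 6.34% higher. The log2 differences of the 40 members ran from −0.89 to 0.50 with a median of −0.09, beside a median of −0.02 over all genes. At an unadjusted p under 0.05 there were 16 members, 11 lower and 5 higher, where 28.9% of all genes passed. The AdV-IL4 and AdV-NULL arrays did not overlap in 15 members, 9 lower and 6 higher, against 31.9% of all genes, 17% lower and 14.9% higher.

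**Figure D1:**
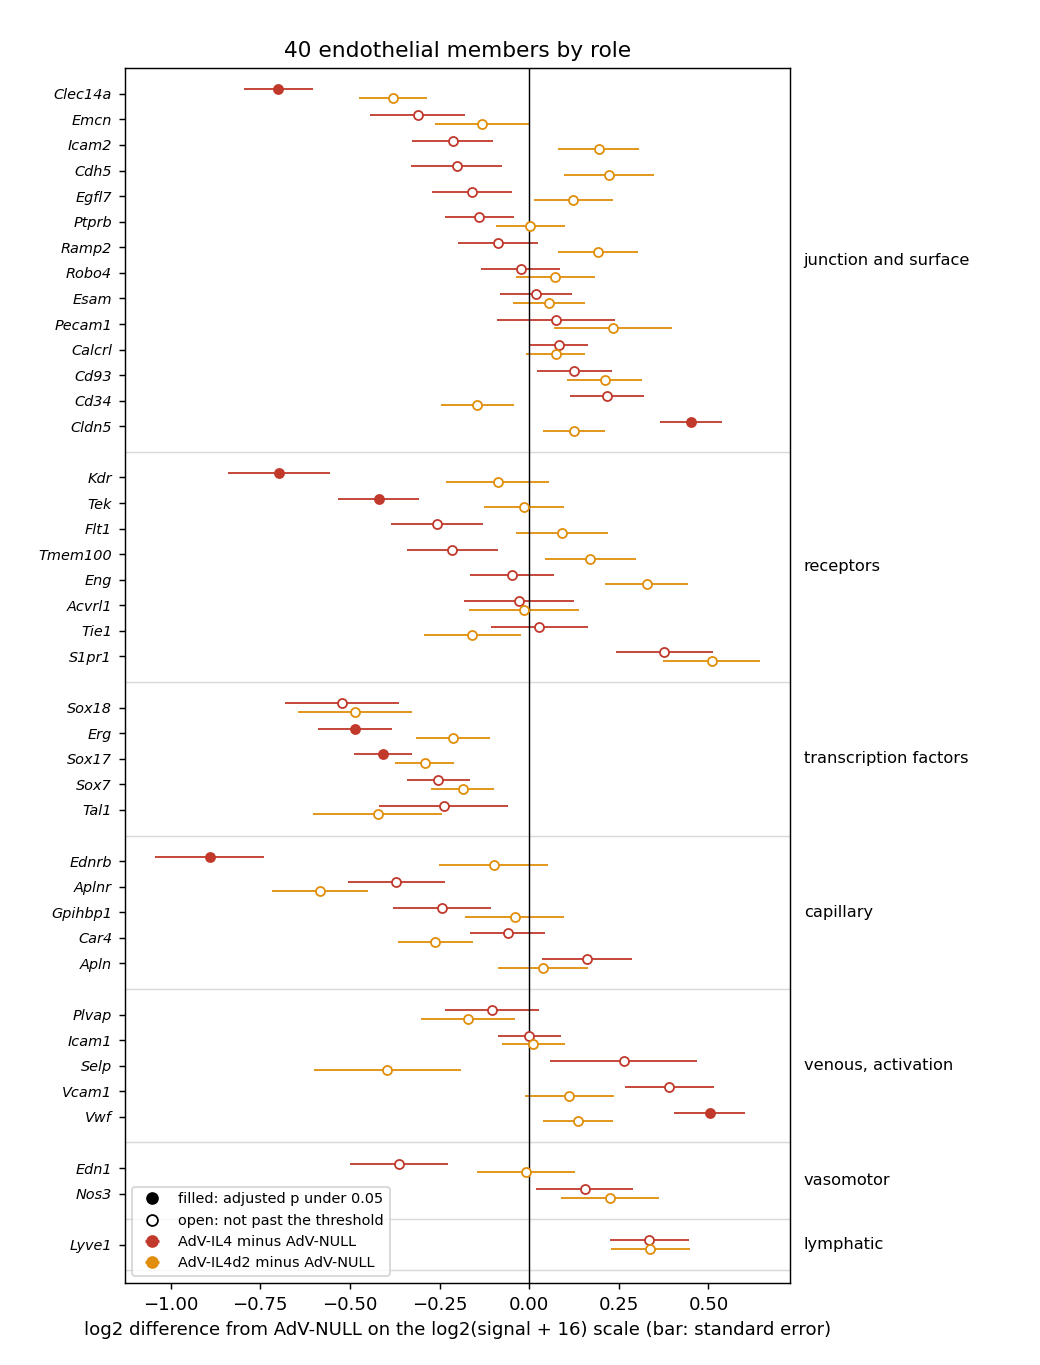
Log2 difference of each of 40 endothelial genes from the AdV-NULL group, by role, with AdV-IL4 and AdV-IL4d2 drawn apart and calls at an adjusted p under 0.05 filled. With AdV-IL4 the 5 transcription factors all lie below 0, and the 2 genes called higher, Vwf and Cldn5, were so relative to the typical gene and turned negative when scaled to poly-A controls.

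Among the 14 genes of the junction and surface role, which here also holds the secreted Egfl7, Clec14a fell and Cldn5 rose, and the median was −0.05. Clec14a is a C-type lectin on the endothelial surface that takes part in vessel formation. Its signals were 2275, 2991 and 2601 with AdV-IL4, 3252, 3236 and 3281 with AdV-IL4d2 and 4281, 4125 and 4323 with AdV-NULL. The 3 groups did not overlap, with AdV-IL4 lowest and AdV-NULL highest. The difference between AdV-IL4 and AdV-NULL was −0.70 ± 0.10 (SE), 1.62-fold lower, with a limma adjusted p of 0.00107. A second Clec14a probe set gave −0.77 ± 0.13 (limma adjusted p = 0.00314), and both remained called with each array left out in turn.

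Cldn5, the main claudin of endothelial tight junctions, went the other way. Signals of 7176, 8379 and 7506 with AdV-IL4 stood above 6318, 5579 and 6470 with AdV-IL4d2 and 5624, 5550 and 5633 with AdV-NULL. No AdV-IL4 array overlapped either other group, while the AdV-IL4d2 and AdV-NULL arrays overlapped each other. The difference from AdV-NULL was 0.45 ± 0.09 (1.37-fold, limma adjusted p = 0.00715) relative to the typical gene, was 0.01 when scaled to hybridisation controls and turned to −0.34 when scaled to poly-A controls. Leaving out AdV-NULL mouse 1 and AdV-IL4 mouse 2 together, the arrays at the ends of the muscle signals given below, left 0.39 with a limma adjusted p of 0.0644.

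The remaining 12 genes of this role did not pass the test. Pecam1, which joins neighbouring endothelial cells, had 1752, 2187 and 2188 with AdV-IL4, 2597, 1689 and 2665 with AdV-IL4d2 and 2106, 1673 and 2031 with AdV-NULL, and all groups overlapped. Cdh5, the VE-cadherin of adherens junctions, had 3584, 5341 and 4881 with AdV-IL4, 6344, 5824 and 6134 with AdV-IL4d2 and 5028, 5051 and 5613 with AdV-NULL. Its AdV-IL4d2 arrays lay above those of both other groups, and the AdV-IL4 arrays spread widely, at −0.20 from AdV-NULL (limma adjusted p = 0.34). Icam2, a ligand for leukocyte integrins, showed the same order, with 2675, 3838 and 3344 for AdV-IL4, 4333, 4427 and 4190 for AdV-IL4d2 and 3949, 3627 and 3745 for AdV-NULL. Differences between AdV-IL4 and AdV-NULL were small for Esam (0.02), Robo4 (−0.02), Ramp2 (−0.09) and Ptprb (−0.14), the last a phosphatase that acts on VE-cadherin and Tek. Calcrl, which forms the adrenomedullin receptor with Ramp2, had 16245, 18084 and 16808 with AdV-IL4 and 16035, 16007 and 16225 with AdV-NULL. These groups did not overlap, but the difference was 0.08 (limma adjusted p = 0.573). Egfl7, a secreted endothelial protein, gave −0.16, Cd34, a sialomucin, 0.22, and Emcn, another, −0.31, while Cd93, a C-type lectin, gave 0.13.

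Kdr and Tek fell among the 8 genes of the growth factor receptor role, which here also holds S1pr1 and Tmem100. The median of the 8 was −0.13. Kdr is the main signalling receptor for VEGF. Kdr signals were 2170, 2508 and 2129 with AdV-IL4, 4373, 2818 and 3360 with AdV-IL4d2 and 3289, 3719 and 4072 with AdV-NULL. All AdV-IL4 arrays lay below every other array, and the AdV-IL4d2 and AdV-NULL arrays were mixed. Kdr was −0.70 ± 0.14, or 1.62-fold, lower than with AdV-NULL (limma adjusted p = 0.00999), a call that held with each array left out.

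Tek, the angiopoietin receptor also called Tie2, had 3083, 4304 and 3634 with AdV-IL4, 4593, 4733 and 5161 with AdV-IL4d2 and 5124, 4610 and 4905 with AdV-NULL. Again the AdV-IL4 arrays were the lowest and the other groups overlapped. The difference of −0.42 ± 0.11, or 1.34-fold lower, had a limma adjusted p of 0.0332. This call rested on single arrays. The limma adjusted p was 0.109 without AdV-NULL mouse 1, 0.083 without AdV-NULL mouse 3, 0.0906 without AdV-IL4 mouse 1 and 0.0764 without AdV-IL4 mouse 3, with differences between −0.54 and −0.30 over the 9 such fits. It was also lost with no filter on low signals (0.0599), in limma without a trend (0.0816) and with only the AdV-IL4 and AdV-NULL arrays in the fit (0.068).

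Flt1, a VEGF receptor that binds the ligand tightly, gave −0.26 (limma adjusted p = 0.229). S1pr1, the sphingosine 1-phosphate receptor that supports barrier function, had 930, 966 and 988 with AdV-IL4, 928, 1126 and 1124 with AdV-IL4d2 and 866, 593 and 779 with AdV-NULL. Both cytokine groups lay above all AdV-NULL arrays, yet 0.38 with AdV-IL4 and 0.51 with AdV-IL4d2 missed the threshold (limma adjusted p = 0.0994 and 0.0958). Tie1, a partner of Tek, gave 0.03 and Acvrl1, the receptor for BMP9 and BMP10, −0.03. Tmem100, which lies downstream of Acvrl1, gave −0.21. Eng, the co-receptor of Acvrl1, gave −0.05 on its brightest probe set, and its other probe set is taken up with the probe sets below.

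All 5 transcription factors were below 0 with AdV-IL4, at a median of −0.41, and Erg and Sox17 were called. Erg is the ETS factor that maintains endothelial identity. It had 732, 921 and 878 with AdV-IL4, 989, 986 and 1079 with AdV-IL4d2 and 1197, 1147 and 1201 with AdV-NULL. The groups stood in that order without overlap. Erg was −0.48 ± 0.10, or 1.40-fold, lower with AdV-IL4 (limma adjusted p = 0.012).

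Sox17, which acts in arterial endothelium, showed the same order, with 1891, 1982 and 1773 for AdV-IL4, 2058, 2011 and 2048 for AdV-IL4d2 and 2460, 2386 and 2659 for AdV-NULL. No array of one group reached another group. With AdV-IL4 it was −0.41 ± 0.08, or 1.33-fold, lower (limma adjusted p = 0.00906). The probe set carries the suffix that marks possible cross-hybridisation, and the other Sox17 probe set gave −0.17 (limma adjusted p = 0.653). The Erg and Sox17 calls held with each array left out.

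Sox7 and Sox18 belong to the same SOX subfamily as Sox17. Sox18 had 958, 1073 and 975 with AdV-IL4, 1131, 801 and 1195 with AdV-IL4d2 and 1719, 1194 and 1467 with AdV-NULL. AdV-IL4 did not overlap AdV-NULL, and AdV-IL4d2 overlapped both. Sox18 missed the threshold at −0.52 ± 0.16 (limma adjusted p = 0.0555). Sox7 had 957, 936 and 1000 with AdV-IL4, 993, 984 and 1058 with AdV-IL4d2 and 1128, 1119 and 1212 with AdV-NULL, where the AdV-NULL arrays were the highest. Its difference was −0.25 (limma adjusted p = 0.0862), and a dim second probe set was at 1.13 ± 0.62. Tal1, a factor shared with blood cell precursors, gave −0.24.

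The 5 capillary genes had a median of −0.24, and Ednrb alone was called. Ednrb is the endothelin B receptor, which clears endothelin and marks the capillary cells next to the gas exchange surface. Its signals were 907, 1478 and 1405 with AdV-IL4, 2188, 1995 and 2281 with AdV-IL4d2 and 2380, 2187 and 2352 with AdV-NULL. All AdV-IL4 arrays were far below the other 6, which overlapped. At −0.89 ± 0.15, or 1.85-fold lower (limma adjusted p = 0.00371), Ednrb had the largest difference of the 40 members and kept its call with each array left out. The other Ednrb probe sets gave −0.53 and −0.52 and were not called (limma adjusted p = 0.162 and 0.246).

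The other capillary genes did not follow Ednrb to the threshold. Car4, a carbonic anhydrase on the capillary surface, had 3641, 3682 and 4316 with AdV-IL4, 3710, 2899 and 3535 with AdV-IL4d2 and 4185, 3876 and 4046 with AdV-NULL. The AdV-IL4 arrays overlapped AdV-NULL, and the AdV-IL4d2 arrays lay below it. Apln, the ligand of Aplnr, gave 0.16, and Gpihbp1, which holds lipoprotein lipase on capillaries, −0.24. Aplnr had 4288, 4845 and 4653 with AdV-IL4, 4406, 3659 and 3850 with AdV-IL4d2 and 4692, 6262 and 7122 with AdV-NULL. The highest AdV-IL4 array exceeded the lowest AdV-NULL array, and the difference was −0.37 (limma adjusted p = 0.103).

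**Figure D2:**
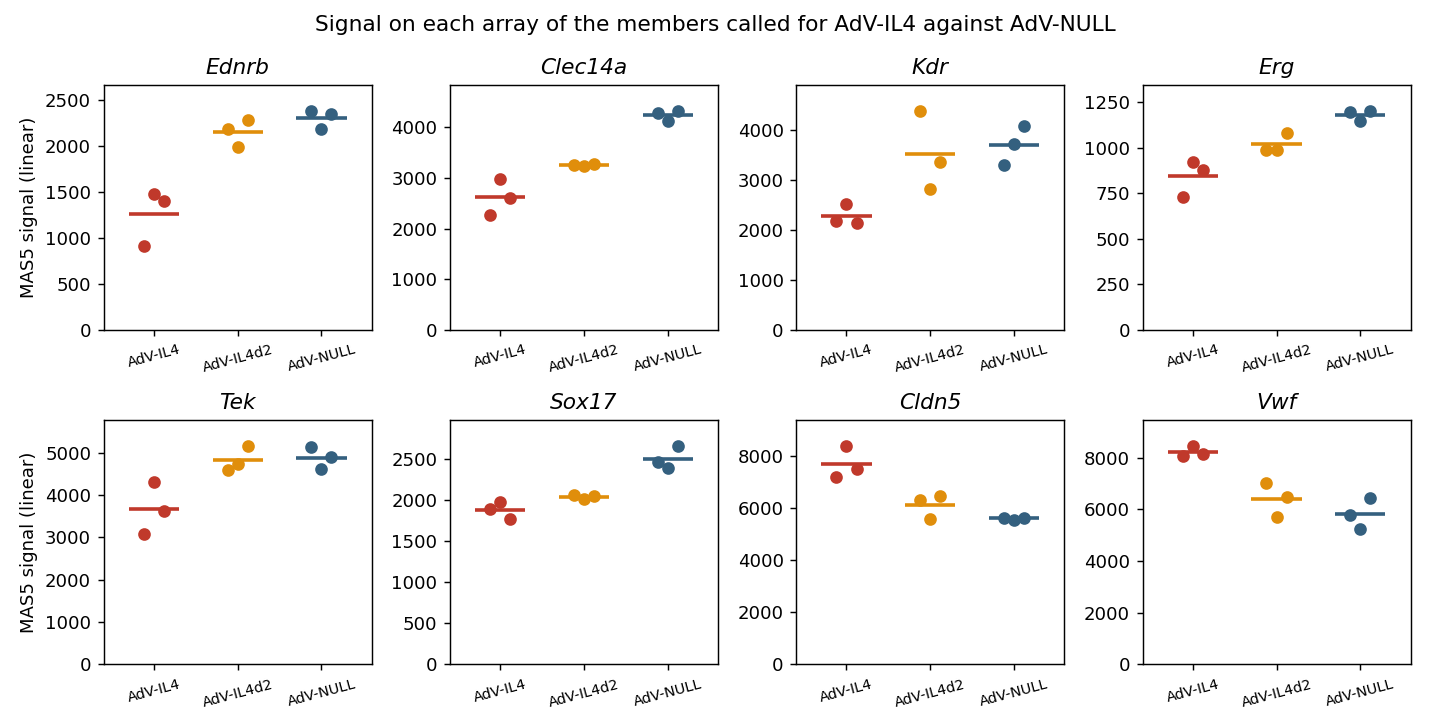
MAS5 signal on each array (points) and group mean (bar) of the 8 endothelial genes called for AdV-IL4 against AdV-NULL, on linear axes from 0. In each panel the AdV-IL4 arrays lie apart from the AdV-NULL arrays, as with 907 to 1478 against 2187 to 2380 for Ednrb. The higher signals of Cldn5 and Vwf were turned lower when arrays were scaled to poly-A controls.

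Vwf rose among the 5 tested venous and activation genes, whose median was 0.26. It encodes von Willebrand factor, which endothelial cells store and release to tether platelets. Vwf had 8072, 8448 and 8123 with AdV-IL4, 7004, 5702 and 6464 with AdV-IL4d2 and 5771, 5231 and 6430 with AdV-NULL. All AdV-IL4 arrays exceeded all others, and the other groups overlapped. The difference from AdV-NULL was 0.50 ± 0.10 (1.42-fold, limma adjusted p = 0.00783) relative to the typical gene, 0.06 when scaled to hybridisation controls and −0.29 when scaled to poly-A controls. The call held with each array left out but not without AdV-NULL mouse 1 and AdV-IL4 mouse 2 together (0.48, limma adjusted p = 0.0622). Platelets carry Vwf as well. Of 7 tested platelet and megakaryocyte markers 0 were higher and 1, Ppbp, was lower with AdV-IL4, and the mean log2 level of the list was 8.47 to 8.52 with AdV-IL4, 8.47 to 8.84 with AdV-IL4d2 and 8.63 to 8.85 with AdV-NULL.

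Vcam1, which binds leukocytes through integrin alpha 4, had 3426, 3468 and 3346 with AdV-IL4, 2980, 2772 and 2684 with AdV-IL4d2 and 2049, 2954 and 2899 with AdV-NULL. Every AdV-IL4 array was higher than all others, and 1 AdV-NULL array was far lower than its group. The difference of 0.39 ± 0.12 did not pass (limma adjusted p = 0.0638), and the other Vcam1 probe sets gave 0.33 and 0.08. Icam1, another integrin ligand, was at 0.00 with a 95% interval of −0.19 to 0.19. Plvap, which forms the diaphragms of fenestrae and caveolae, was at −0.10.

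The selectins were dim. Selp, the P-selectin that brings leukocytes to roll, had 311, 296 and 217 with AdV-IL4, 150, 149 and 203 with AdV-IL4d2 and 236, 255 and 185 with AdV-NULL. AdV-IL4 overlapped AdV-NULL but not AdV-IL4d2, and the difference between AdV-IL4 and AdV-IL4d2 was 0.66 ± 0.21 (limma adjusted p = 0.134). Sele, the E-selectin of activated endothelium, was the member not tested, with 44.5, 81.9 and 51.8 for AdV-IL4, 38.9, 34.4 and 67.7 for AdV-IL4d2 and 63.9, 78.3 and 105 for AdV-NULL, all of them below the array medians.

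The vasomotor genes pointed in different directions without passing. Edn1, the vasoconstrictor that Ednrb binds, had 409, 492 and 494 with AdV-IL4, 671, 569 and 559 with AdV-IL4d2 and 658, 652 and 505 with AdV-NULL. The AdV-IL4 arrays were the lowest, at −0.36 from AdV-NULL (limma adjusted p = 0.114). Nos3, the endothelial nitric oxide synthase, gave 0.15.

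Lyve1, the hyaluronan receptor of lymphatic endothelium that some macrophages also carry, had 6853, 8873 and 7554 with AdV-IL4, 7514, 7179 and 8568 with AdV-IL4d2 and 5759, 5899 and 6726 with AdV-NULL. Both cytokine groups lay above AdV-NULL and overlapped each other. The difference was 0.34 with AdV-IL4 (limma adjusted p = 0.0727) and 0.34 with AdV-IL4d2 (limma adjusted p = 0.173). Macrophage markers moved with AdV-IL4 as well, with 5 of 10 called higher and 1 lower, at a median of 0.50, where 13% of all genes were called. With AdV-IL4d2 0 of 10 were called, at a median of 0.05, where 1.26% of all genes were called. The part of macrophages in the Lyve1 signal was not tested.

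Several genes had probe sets that gave different answers. The second brightest probe set was tested for 16 members, and with it 5 were called for AdV-IL4 against AdV-NULL, of which Clec14a was also called by its brightest. The other 4 were Eng, Flt1, Lyve1 and Cd93. Over all genes with a second tested probe set, 252 were called higher and 206 lower with it. The number of such genes is not given here, so 5 of 16 is not read as many or few. The dimmer probe set of Eng, a transforming growth factor beta family co-receptor, had 1374, 1444 and 1237 with AdV-IL4, 2313, 1865 and 2081 with AdV-IL4d2 and 1842, 1809 and 1830 with AdV-NULL. Every AdV-IL4 array was below AdV-NULL, and every AdV-IL4d2 array above it. With AdV-IL4 this probe set was −0.43 ± 0.10 from AdV-NULL (limma adjusted p = 0.0159), a call lost without AdV-NULL mouse 1 or without AdV-IL4 mouse 3, with values of −0.48 to −0.37 over the 9 fits.

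The called probe set of Flt1 had 736, 768 and 914 with AdV-IL4, 967, 940 and 1138 with AdV-IL4d2 and 1242, 1092 and 1090 with AdV-NULL. The AdV-IL4 arrays were the lowest and the other groups overlapped. Its −0.50 ± 0.12 (limma adjusted p = 0.0178) was not called without AdV-NULL mouse 1, AdV-IL4 mouse 1 or AdV-IL4 mouse 2, with values of −0.59 to −0.44. The brightest Flt1 probe set was at −0.26 and 2 more were at −0.34 and −0.12.

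The dimmer probe set of Lyve1 had 5837, 6867 and 5474 with AdV-IL4, 6242, 5258 and 6220 with AdV-IL4d2 and 4254, 4143 and 4445 with AdV-NULL. As on the brighter probe set, both cytokine groups were above AdV-NULL. The difference with AdV-IL4 was 0.49 ± 0.10 (limma adjusted p = 0.00998) relative to the typical gene and turned to −0.30 when scaled to poly-A controls. The call held with each array left out but not without AdV-NULL mouse 1 and AdV-IL4 mouse 2 together (0.40, limma adjusted p = 0.0801). With AdV-IL4d2 it was 0.46 ± 0.10 (limma adjusted p = 0.0501). The second brightest probe set of Cd93 was 0.36 ± 0.09 higher with AdV-IL4 (limma adjusted p = 0.0244), a call lost in 5 of the 9 fits with 1 array left out, over values of 0.28 to 0.42, and reversed by both control scalings. A dim further Cd93 probe set gave 0.59 ± 0.19 with AdV-IL4 (limma adjusted p = 0.0738) and 0.44 with AdV-IL4d2 (limma adjusted p = 0.315). Neither cytokine group overlapped AdV-NULL on it. The plot of members with several probe sets sets these answers side by side.

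**Figure D3:**
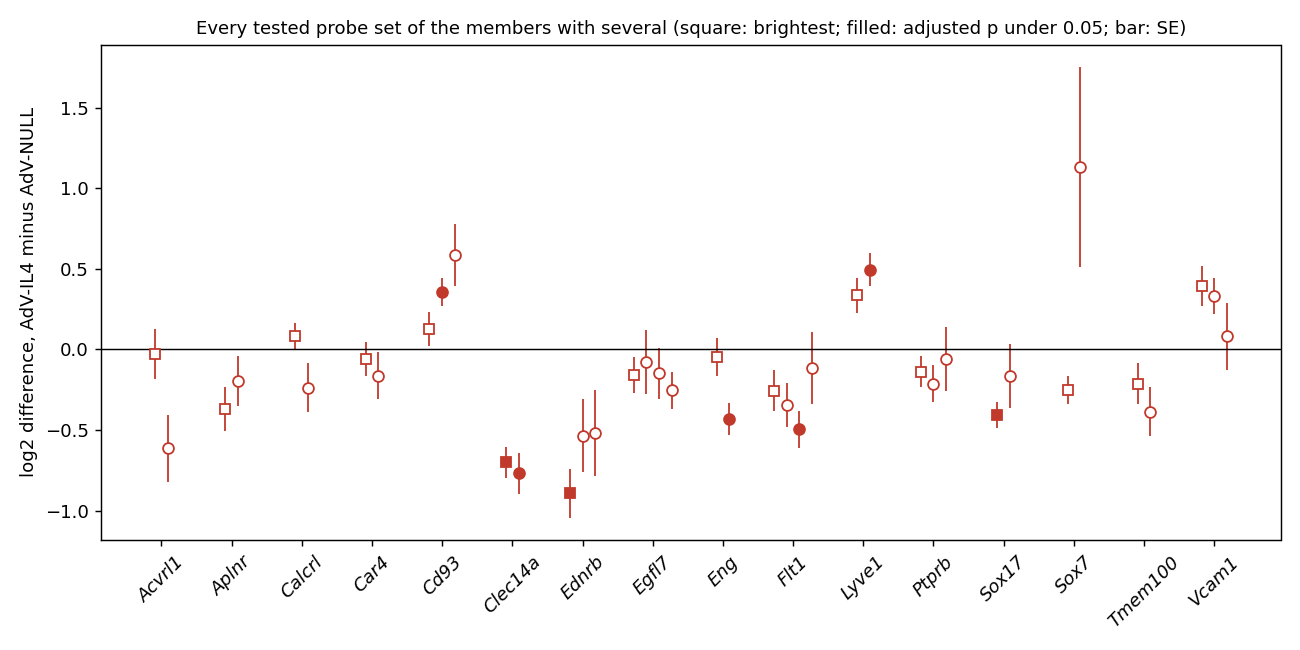
Log2 difference of AdV-IL4 from AdV-NULL for each tested probe set of the members with more than 1, with filled points for an adjusted p under 0.05. Both Clec14a probe sets are called, while Eng, Flt1, Cd93, Lyve1, Sox17 and Ednrb each have called and uncalled ones, and the higher ones of Cd93 and Lyve1 turn lower when scaled to poly-A controls.

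With AdV-IL4d2, 0 of 40 members were called against AdV-NULL by limma, where 1.26% of all genes were, 0.401% lower and 0.859% higher. At an unadjusted p under 0.05 there were 9 members, 6 lower and 3 higher, against 15.5% of all genes. A single call, Clec14a without AdV-IL4 mouse 1 or AdV-IL4 mouse 2 and Aplnr without AdV-NULL mouse 1, appeared when those arrays were left out, and both genes were lower. The differences ran from −0.58 to 0.51 with a median of 0.01, where all genes had −0.00. AdV-IL4d2 and AdV-NULL shared no values in 12 members, 6 higher and 6 lower, against 22.6% of all genes, 11.4% higher and 11.3% lower.

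With AdV-IL4d2 the difference was lowest for Aplnr and highest for S1pr1. Aplnr was at −0.58 ± 0.13 (limma adjusted p = 0.0592), S1pr1 as given above, and Clec14a at −0.38 ± 0.10 (limma adjusted p = 0.0816). None reached the threshold, though the AdV-IL4d2 and AdV-NULL arrays did not overlap in any of them. Of the transcription factors, all 5 were below 0 with a median of −0.29, as with Sox18 at −0.49, Tal1 at −0.42, Sox17 at −0.29, Erg at −0.21 and Sox7 at −0.19. The poly-A scaling moved the median of all genes by more than the smaller of these differences.

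Higher with AdV-IL4d2 without overlap, though not called, were S1pr1, Lyve1, Cdh5, Icam2, Cd93 and Eng. Cdh5 was at 0.22 (limma adjusted p = 0.461), Icam2 at 0.19 (limma adjusted p = 0.477), Eng at 0.33 (limma adjusted p = 0.213) and Cd93 at 0.21 (limma adjusted p = 0.388). Eng on its brightest probe set had 2135, 2945 and 2774 with AdV-IL4, 3169, 3297 and 3649 with AdV-IL4d2 and 2825, 2497 and 2727 with AdV-NULL. Cd93 had 5899, 7212 and 7250 with AdV-IL4, 7404, 6645 and 7479 with AdV-IL4d2 and 6597, 5538 and 6494 with AdV-NULL. The AdV-IL4 arrays overlapped AdV-NULL in both genes, and AdV-IL4d2 did not. Kdr, Tek, Ednrb, Cldn5 and Vwf, all called with AdV-IL4, were at −0.09, −0.02, −0.10, 0.12 and 0.14 with AdV-IL4d2. Both comparisons use the same 3 AdV-NULL arrays.

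The direct comparison of AdV-IL4 with AdV-IL4d2 called 1 of 40 members, Ednrb, which was lower, where 2.24% of all genes were called, 1.05% lower and 1.18% higher. Ednrb was −0.79 ± 0.15 with a 95% interval of −1.12 to −0.46, or 1.73-fold lower (limma adjusted p = 0.0242). The call was made on the brightest Ednrb probe set only and needed all 3 AdV-IL4d2 arrays. Without AdV-IL4d2 mouse 1, 2 or 3 the limma adjusted p was 0.0805, 0.0594 and 0.113, and over all 9 fits the difference was −0.92 to −0.57. The number of members called was 0 without AdV-IL4d2 mouse 1 or 3, 1 without AdV-IL4d2 mouse 2, which was Kdr, and 3 without AdV-IL4 mouse 2, namely Ednrb, Icam2 and Tek, all lower. At an unadjusted p under 0.05 there were 18 members, 13 lower and 5 higher, where 18.5% of all genes passed. The median of the members was −0.09 and that of all genes −0.02.

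Kdr came next to the threshold, at −0.61 ± 0.14 with an interval of −0.92 to −0.30 (limma adjusted p = 0.0554). Cdh5 gave −0.42 (limma adjusted p = 0.117), Icam2 −0.41 (limma adjusted p = 0.1), Tek −0.40 (limma adjusted p = 0.0976) and Tmem100 −0.38 (limma adjusted p = 0.156). In each of these the AdV-IL4 arrays were below all AdV-IL4d2 arrays, as they were in 12 members, with 5 members the other way, against 24% of all genes without overlap, 13% lower and 11.1% higher. The 5 were Vwf at 0.37, Cd34 at 0.36, Cldn5 at 0.33, Vcam1 at 0.28 and Selp at 0.66, with limma adjusted p-values of 0.0904, 0.104, 0.0862, 0.286 and 0.134. Of the additional probe sets, the dimmer one of Eng was −0.62 ± 0.10 (limma adjusted p = 0.00898), a call lost when AdV-IL4d2 mouse 3 was left out. Its values over the 9 fits were −0.70 to −0.54.

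The members also varied within groups. AdV-IL4 mouse 1 had the lowest signal of the 9 arrays in 15 of 40 members and lay below the members' own means in 30, with a median deviation of −0.17 log2, while the other arrays had medians between −0.06 and 0.09. Cdh5, Icam2, Tmem100 and Gpihbp1 had their lowest signal on that array, as the map of deviations shows. Without it, the number of members called for AdV-IL4 against AdV-NULL stayed between 7 and 10, as it did without each of the other arrays. The least variable members within groups were Sox7 and Sox17, with a pooled SD of 0.06 and 0.07 log2, and the most variable was Tal1, at 0.27, beside a median of 0.16.

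**Figure D4:**
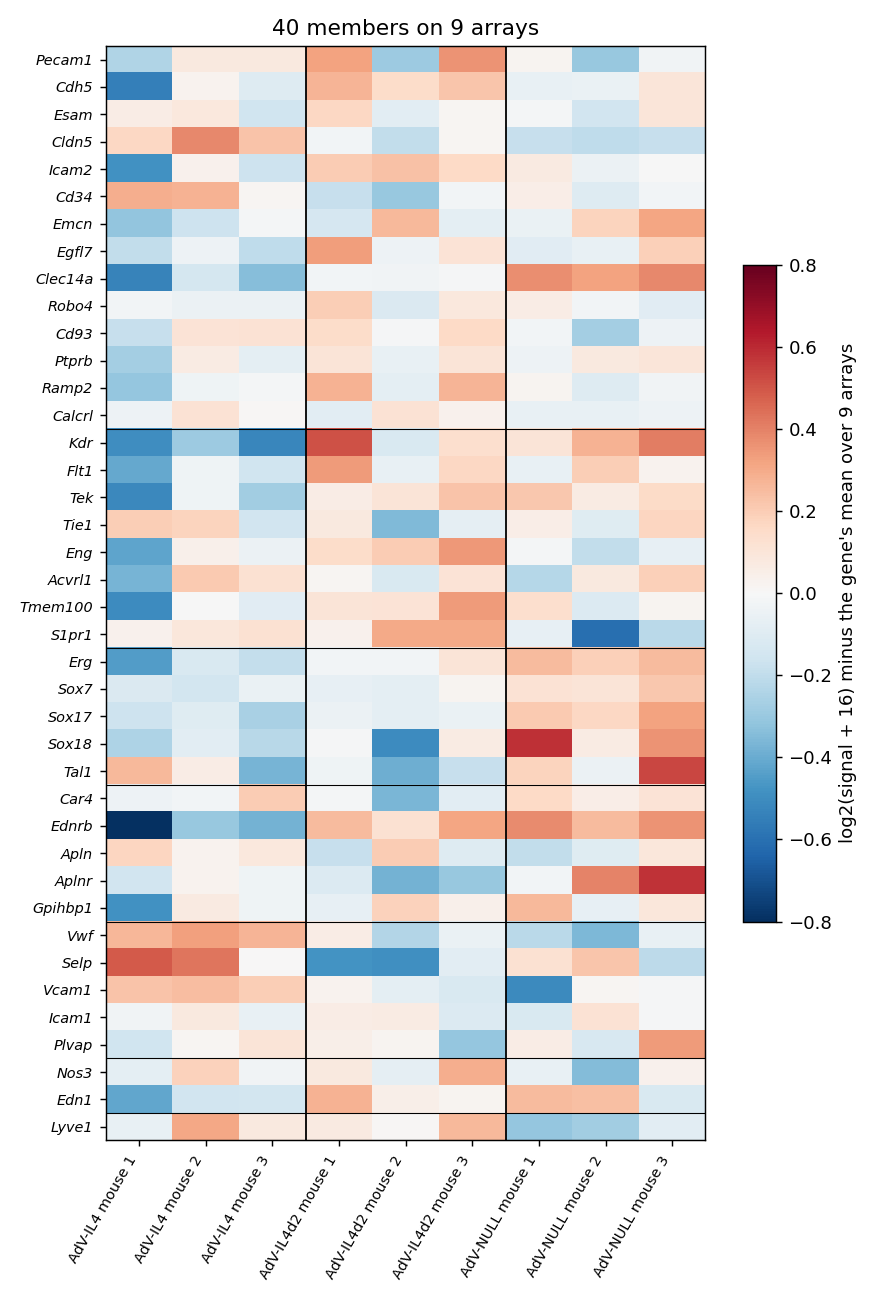
Deviation of log2(signal + 16) from the gene's mean over the 9 arrays, for 40 endothelial genes (rows, by role) and 9 arrays (columns, 3 per group). Ednrb, Clec14a and Kdr are low on all 3 AdV-IL4 arrays and Vwf and Cldn5 are high there relative to the typical gene, an excess that poly-A scaling turned round, while Cdh5 and Icam2 are low mainly on AdV-IL4 mouse 1.

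Other genes of blood vessels were read from 7 lists, whose counts with AdV-IL4 stand beside 13% of all genes called, 6.63% lower and 6.34% higher. Among 14 angiogenic ligands and related factors 4 were called lower and 0 higher, or 28.6% called, at a median of −0.32, where the median over all genes was −0.02. Of the 14, 10 lay below 0 and 4 above, over differences of −0.58 to 0.96, and the highest was not called. Vegfa, the ligand of Kdr made largely by alveolar type 1 cells in the adult mouse lung, had 2169, 2798 and 2821 with AdV-IL4, 2964, 2706 and 2779 with AdV-IL4d2 and 3806, 3391 and 4479 with AdV-NULL. Both cytokine groups lay below AdV-NULL. Vegfa was −0.58 ± 0.12 lower with AdV-IL4 (limma adjusted p = 0.0112), and kept the call with each array left out, while AdV-IL4d2 gave −0.46 (limma adjusted p = 0.0977).

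Bmp4 and Bmp6, ligands of the family that signals through Acvrl1 and Bmpr2 complexes among others, were also lower. Bmp4 was at −0.58 (limma adjusted p = 0.0245), a call lost without AdV-NULL mouse 2, AdV-NULL mouse 3 or AdV-IL4 mouse 1, with values of −0.69 to −0.42. Bmp6 was at −0.56 (limma adjusted p = 0.0201), lost without AdV-NULL mouse 1 or 3 or AdV-IL4 mouse 1 or 2, with values of −0.67 to −0.45. The remaining call was Pdgfb, which recruits pericytes, at −0.37 (limma adjusted p = 0.0323). It is named because it completes the count and was not refitted with arrays left out.

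Of 14 Notch and arterial genes 3 were lower and 1 was higher with AdV-IL4, or 28.6% called, where 13% of all genes were, with a median of −0.02. Bmx, a kinase of arterial endothelium, had 152, 197 and 132 with AdV-IL4, 270, 239 and 204 with AdV-IL4d2 and 272, 365 and 289 with AdV-NULL. The AdV-IL4 arrays were below all others, at −0.89 ± 0.19 from AdV-NULL (limma adjusted p = 0.0138), a call lost only without AdV-NULL mouse 2, with values of −1.03 to −0.77 over the 9 fits. Hes1, a Notch target in many cell types, was lower with both viruses, at −0.40 with AdV-IL4 (limma adjusted p = 0.0154) and −0.50 with AdV-IL4d2 (limma adjusted p = 0.0193). The AdV-IL4 call was lost without AdV-NULL mouse 1 or AdV-IL4 mouse 2, over values of −0.46 to −0.36. The AdV-IL4d2 call was lost without AdV-NULL mouse 1 or 3 or any of the AdV-IL4d2 mice, over values of −0.52 to −0.48. Scaling to hybridisation or poly-A controls lost it as well, as did leaving out AdV-NULL mouse 1 and AdV-IL4 mouse 2 together. The Notch ligand Dll4 was at −0.43 (limma adjusted p = 0.038), with the call lost in 7 of 9 fits over values of −0.46 to −0.37 and also with mouse number as a block. Notch4, an endothelial Notch receptor named to complete the count, was at 0.39 relative to the typical gene (limma adjusted p = 0.0358).

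Of 8 venous and lymphatic genes 2 were lower and 1 was higher with AdV-IL4, or 37.5% called, against 13% of all genes, with a median of −0.06. Nr2f2, the factor that sets venous identity, had 1644, 1779 and 1803 with AdV-IL4, 2071, 2278 and 2442 with AdV-IL4d2 and 2490, 2153 and 2918 with AdV-NULL. The AdV-IL4 arrays were lowest and the others overlapped. Nr2f2 was −0.52 ± 0.11, or 1.43-fold, lower (limma adjusted p = 0.0128), with the call kept whichever single array was left out but lost without AdV-NULL mouse 1 and AdV-IL4 mouse 2 together (−0.54, limma adjusted p = 0.0661). Mmrn1, a lymphatic and platelet protein, was at −0.57 (limma adjusted p = 0.0475), with the call lost in 7 of 9 fits over values of −0.73 to −0.40.

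Slc6a2, the noradrenaline transporter that lung endothelium uses to clear amines, was the vascular gene called higher with both viruses. It had 2733, 3282 and 2775 with AdV-IL4, 3153, 3500 and 3592 with AdV-IL4d2 and 2069, 1668 and 2108 with AdV-NULL. Both cytokine groups were above all AdV-NULL arrays. Slc6a2 was 0.59 ± 0.11 higher with AdV-IL4 relative to the typical gene (limma adjusted p = 0.00651), which poly-A scaling turned to −0.21, and 0.81 ± 0.11 higher with AdV-IL4d2 (limma adjusted p = 0.00274). Both calls held with each array left out. In the AdV-IL4d2 comparison Slc6a2 and Hes1 were the only calls in the 7 lists.

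Among 16 further endothelial transcription factors 3 were lower and 0 higher with AdV-IL4, or 18.8% called, against 13% of all genes, with a median of −0.06. Gata6, a factor of endothelium and of lung epithelium and smooth muscle, had 854, 1025 and 952 with AdV-IL4, 1111, 1189 and 1234 with AdV-IL4d2 and 1530, 1467 and 1537 with AdV-NULL. The groups were in that order without overlap, and AdV-IL4 was −0.67 ± 0.09, or 1.60-fold, lower (limma adjusted p = 0.00118), with each array left out as well. Lmo2, a partner of Tal1, was at −0.46 (limma adjusted p = 0.0257), lost without AdV-NULL mouse 2 or 3 or AdV-IL4 mouse 1 or 2, with values of −0.55 to −0.39. Ets2 was at −0.41 (limma adjusted p = 0.022), lost without AdV-NULL mouse 1, AdV-NULL mouse 3 or AdV-IL4 mouse 1, with values of −0.48 to −0.31. Fli1 and Ets1, ETS factors of both endothelium and leukocytes, were at 0.04 and −0.06.

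The remaining 3 lists had 1 call each with AdV-IL4, or 6.25%, 7.14% and 9.09% called, each below the 13% of all genes. Procr, the protein C receptor, was at 0.58 relative to the typical gene (limma adjusted p = 0.017) among 16 other receptors, lost without AdV-NULL mouse 3 or AdV-IL4 mouse 1 or 2, with values of 0.50 to 0.68, and turned to −0.18 by poly-A scaling. Cav2, a caveolar coat protein, was at −0.38 (limma adjusted p = 0.038) among 14 caveolar and permeability genes, with the call lost in 7 of 9 fits over values of −0.44 to −0.28. Cx3cl1, a membrane-bound chemokine, was at −0.58 (limma adjusted p = 0.0284) among 11 genes of leukocyte traffic, lost without AdV-NULL mouse 1 or 2 or AdV-IL4 mouse 1 or 3, with values of −0.68 to −0.48. The medians of these lists were −0.01, −0.19 and 0.09.

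**Figure D5:**
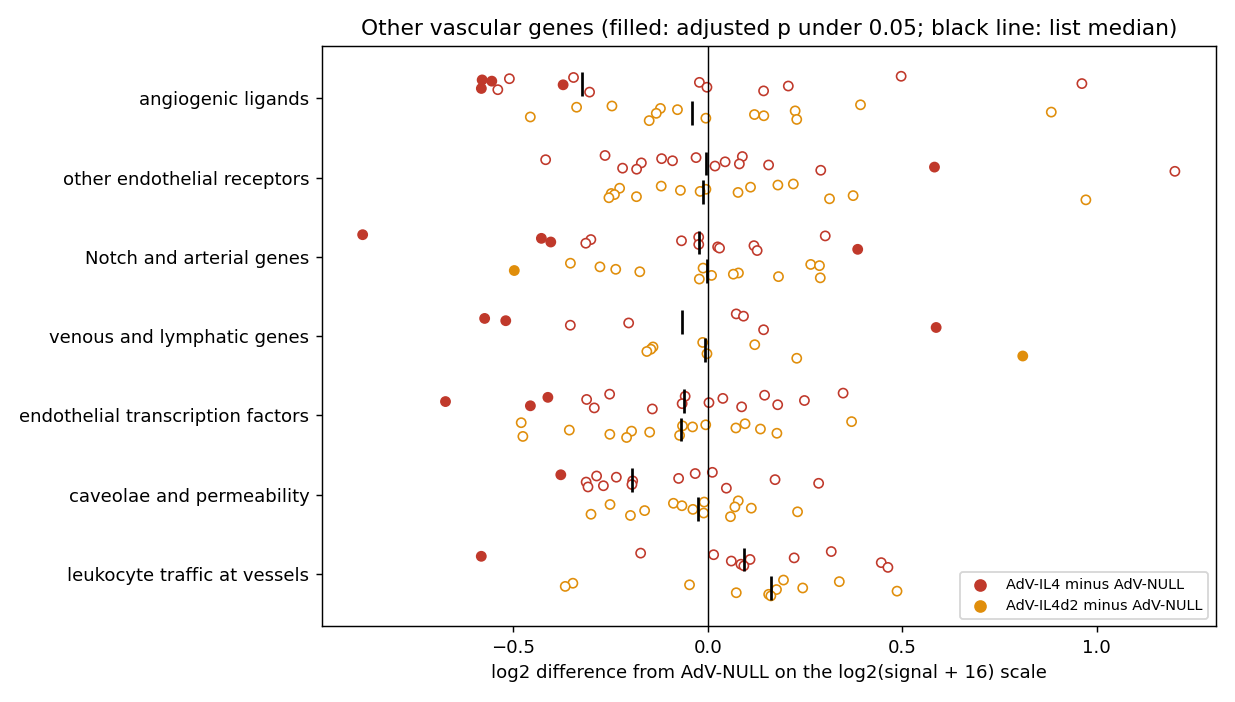
Log2 difference from AdV-NULL of the other vascular genes in 7 lists, with AdV-IL4 and AdV-IL4d2 drawn apart, filled points for an adjusted p under 0.05 and a line at each list's median. The angiogenic ligands have the lowest median with AdV-IL4, −0.32, and Procr and Slc6a2, the highest filled points with AdV-IL4, turn lower when scaled to poly-A controls.

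Markers of other cells in the lung also moved between AdV-IL4 and AdV-NULL, where 13% of all genes were called, 6.63% lower and 6.34% higher. With AdV-IL4d2, where 1.26% of all genes were called, 1 of 10 leukocyte markers was called higher. None of the pericyte, alveolar or fibroblast markers below was called with AdV-IL4d2. With AdV-IL4, 7 of 10 leukocyte markers were called higher relative to the typical gene, and their mean log2 level was 11.35 to 11.55 with AdV-IL4, 11.27 to 11.35 with AdV-IL4d2 and 10.66 to 11.17 with AdV-NULL. Of 10 pericyte and vascular smooth muscle markers 4 were lower, at mean levels of 9.41 to 9.93 with AdV-IL4, 9.74 to 10.17 with AdV-IL4d2 and 10.42 to 10.45 with AdV-NULL. Alveolar type 1 markers had 3 of 10 lower, at 12.63 to 12.96, 12.85 to 12.96 and 12.93 to 13.09 in the same order of groups, and alveolar type 2 markers, which include the surfactant genes that mark lung tissue, 2 of 9 higher, at 13.45 to 13.72, 13.47 to 13.68 and 13.17 to 13.52. Of 9 fibroblast and mesothelium markers Col1a1 was higher and Dcn, Inmt and Lum were lower, over differences of −1.16 to 1.28, and the mean level of the list was 11.15 to 11.58 with AdV-IL4, 11.42 to 11.66 with AdV-IL4d2 and 11.36 to 11.58 with AdV-NULL. The mean level of the 40 endothelial members was 11.11 to 11.33 with AdV-IL4, 11.22 to 11.35 with AdV-IL4d2 and 11.27 to 11.39 with AdV-NULL, so the groups overlapped. In the same order, capillary genes were at 10.96 to 11.23, 11.21 to 11.24 and 11.37 to 11.51. Transcription factors were at 9.92 to 10.06, 9.92 to 10.13 and 10.23 to 10.47. Venous and activation genes were at 11.59 to 11.71, 11.35 to 11.43 and 11.36 to 11.50. The junction, receptor and vasomotor roles overlapped AdV-NULL. These levels were not tested.

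Muscle markers were lower with AdV-IL4 than with AdV-NULL and varied more between arrays. Of 10 heart muscle markers 7 were called lower and 0 higher, at a median of −2.22, and all 10 were lower without overlap. Of 6 skeletal muscle markers 4 were called lower and 0 higher, at a median of −3.46. Over all genes 13% were called. The mean log2 level of 10 heart muscle markers was 7.53 to 9.61 with AdV-IL4, 9.35 to 11.02 with AdV-IL4d2 and 10.48 to 11.67 with AdV-NULL, and 6 skeletal muscle markers reached 12.73 on AdV-NULL mouse 1, the highest of the 9 arrays. AdV-IL4 mouse 2 had the lowest heart muscle level. Without these 2 arrays together, 7 members were called for AdV-IL4 against AdV-NULL, all lower, 6 of them among the 8 above and the other one Aplnr, while Cldn5 and Vwf were not called. Over all 11984 genes that fit called 332 higher and 326 lower. The arrays that remained still differed in heart muscle level, with 9.60 and 9.61 for AdV-IL4 and 10.84 and 10.48 for AdV-NULL. This fit therefore does not balance muscle between the groups. The AdV-IL4 calls of Bmp6, Hes1, Dll4, Nr2f2, Mmrn1, Lmo2, Ets2, Procr and Cx3cl1 were also lost in it. So were those of the second brightest Eng, Flt1, Lyve1 and Cd93 probe sets. Vegfa, Bmp4, Bmx, Gata6, Cav2 and Slc6a2 kept theirs. The 3′ to 5′ signal ratio of Gapdh, a measure of RNA quality, was 1.80, 1.78 and 1.54 with AdV-IL4, 1.57, 1.35 and 1.47 with AdV-IL4d2 and 0.955, 1.45 and 1.44 with AdV-NULL. That of Actb was 3.75, 3.16 and 2.79 with AdV-IL4, 2.79, 2.61 and 2.34 with AdV-IL4d2 and 2.28, 2.80 and 2.88 with AdV-NULL. Both ratios were highest on AdV-IL4 mouse 1, the array lowest in 15 of 40 members. The part of these cells, tissues and ratios in the endothelial differences was not tested.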

How the data were processed

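RNA of 9 whole lungs was measured on Affymetrix 3′ arrays, 1 per mouse. The authors deposited linear signal intensities of 45101 probe sets. Expression Console 2.0 of Affymetrix, GCOS and MAS5 appear in the submitters' processing notes without roles, and from the values each array was scaled to a 2% trimmed mean of 500.002. Detection calls and probe sequences were not used here, and no depth applies to arrays.

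Signals were taken to log2(signal + 16). Probe sets above their array's median on at least 3 arrays were tested, without 64 control probe sets, in limma 3.58.1 (R 4.3.3; lmFit and eBayes with a trend), with all 9 arrays in 1 model of 3 groups, 6 residual degrees of freedom, no covariates, two-sided tests and Benjamini-Hochberg adjustment over 23824 probe sets. Fold changes on this scale understate changes of dim probe sets. Errors are standard errors of the fit. The code was tested on simulated data. Gene names came from the platform annotation, which gives 34945 probe sets 1 symbol and 932 several, with 9160 unnamed, and probe sets with several were not used.

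The members, roles, lists, alternatives and named-gene rule were chosen with earlier results of these data known. Called members, those not overlapping AdV-NULL, and up to 3 called genes per other list with the largest differences were named. Nothing in the labels beyond separate mice describes the replicates. The alternatives were other pseudocounts (1 and 64), filters, normalizations, scaling to control spots, a mouse-number block, limma without trend or with 2 groups, the second brightest probe set, and arrays left out.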

Additional observations from a re-analysis of the deposited data

Results flagged for a closer look

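In 2 places the responses to the cytokine forms differed by the limma contrast between the cytokine groups. Ednrb on its brightest probe set was −0.79 ± 0.15 log2 for AdV-IL4 minus AdV-IL4d2 (limma adjusted p = 0.0242), with 907 to 1478 in AdV-IL4 lungs and 1995 to 2281 in AdV-IL4d2 lungs. The call was lost without any 1 of the AdV-IL4d2 mice, as given with the result. The other Ednrb probe sets were not called in this contrast.

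Eng on its dimmer probe set was −0.62 ± 0.10 for AdV-IL4 minus AdV-IL4d2 (limma adjusted p = 0.00898), with 1374, 1444 and 1237 in AdV-IL4 lungs and 2313, 1865 and 2081 in AdV-IL4d2 lungs. The AdV-NULL signals of 1842, 1809 and 1830 lay between those groups without overlap. The brighter Eng probe set gave −0.37 in the same contrast (limma adjusted p = 0.136), and the call was lost without AdV-IL4d2 mouse 3.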

How the results depend on the processing

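Of 639 recomputed values for 32 single genes or probe sets, 520 kept direction and call, 112 lost the call and 7 reversed. The reversed values, all for AdV-IL4 against AdV-NULL, were the second brightest Cd93 probe set at −0.092 scaled to hybridisation controls, and with poly-A controls −0.44 for the same probe set, −0.34 for Cldn5, −0.29 for Vwf, −0.30 for the dimmer Lyve1 probe set, −0.18 for Procr and −0.21 for Slc6a2. The cause was not tested. The mean log2 level of the hybridisation controls was 12.37 to 12.91 on AdV-IL4, 11.95 to 12.28 on AdV-IL4d2 and 12.10 to 12.35 on AdV-NULL arrays.

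For AdV-IL4 against AdV-NULL, 8 members were called, 21 scaled to hybridisation controls and 34 with poly-A controls, all lower, beside 35.5% and 80.4% of all genes. With the second brightest probe set 5 of 16 were called, where 252 genes were called higher and 206 lower. Leaving out 1 array gave 7 to 10. For AdV-IL4d2 against AdV-NULL, 0 were called, and 1 each with a filter on all 9 arrays (Aplnr), with only these groups fitted (Clec14a) and without AdV-NULL mouse 1 and AdV-IL4 mouse 2 together (Aplnr). Leaving out 1 array gave 0 to 1. Over all genes these settings called 115 higher and 65 lower, 101 and 70, and 68 and 31. For AdV-IL4 against AdV-IL4d2, 1 was called, and 2 with that stricter filter, 29 and 39 with hybridisation and poly-A controls, 0 without a trend and 3 without those 2 arrays. The 29 and 39 stand beside 6310 and 11462 of all 11984 genes called lower, with 58 and 23 called higher. The stricter filter called 149 genes higher and 140 lower, and the fit without those 2 arrays 91 and 76. Leaving out 1 array gave 0 to 3.

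Over all genes, AdV-IL4 against AdV-NULL called 760 higher and 794 lower, 169 and 4082 with hybridisation controls, 86 and 9547 with poly-A controls, and 332 and 326 without those 2 arrays. AdV-IL4d2 against AdV-NULL called 103 higher and 48 lower, 247 and 33 with poly-A controls and 61 and 32 without a trend. AdV-IL4 against AdV-IL4d2 called 142 higher and 126 lower, 58 and 6310 with hybridisation controls, 23 and 11462 with poly-A controls, 68 and 42 without a trend and 92 and 66 without a filter.

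The correlation of same-numbered mice was −0.07 to 0.12 over 9 pairs, of which 2 exceeded 0.1. Between AdV-IL4 and AdV-IL4d2 same-numbered mice gave 0.12, 0.10 and 0.07, and different-numbered mice −0.09 to −0.01. Between either cytokine group and AdV-NULL same-numbered mice gave −0.07 to 0.08, and different-numbered mice −0.13 to 0.13. With 3 arrays per group these values cannot decide whether mouse numbers pair the arrays, and the main fit used no pairing. The replicate block called 9 members, adding Sox18, for AdV-IL4 against AdV-NULL, 0 for AdV-IL4d2 against AdV-NULL and 1 for AdV-IL4 against AdV-IL4d2. With 3 arrays per group and 6 residual degrees of freedom, a missed threshold does not show equal levels. Probe sets near background were not identified, because detection calls were not used.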
